A study of Mus musculus with 3 samples.

Results

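The promoter peaks of *Dali*, a long non-coding RNA, are the CHART-Seq peaks whose midpoint lay less than 1000 bp from a transcriptional start site (TSS) of a protein-coding gene. 360 of the 1427 deposited peaks met this rule, which is 25.23% (95% Wilson interval over peaks, 23.04% to 27.55%). The midpoint is the mean of a peak's start and end, and the TSSs are those of the protein-coding transcripts of GENCODE M1 on the mm9 genome, chromosomes 1 to 19 and X. CHART-Seq hybridises biotinylated DNA oligonucleotides to an RNA in cross-linked chromatin, captures the complex on beads, and sequences the genomic DNA that comes with it. The study made 3 *Dali* pull-downs (n2a-Dali-R1, n2a-Dali-R2 and n2a-Dali-R3) from untreated N2A cells, a mouse neuroblastoma line kept in medium with serum, each from about 300000000 cells and 810 pmol of oligonucleotides. 2 cocktails of 5 oligonucleotides and a pool of all 10 were used, and which pull-down received which was not mapped. The control DNA (input, and a pull-down with an oligonucleotide to bacterial *lacZ*) was not analysed here. 1 list stands for the 3 pull-downs together, and it gives each peak a position and a score whose unit is not named. It holds no reads and no value for a pull-down, so the depth and the spread between pull-downs are unknown, nothing could be tested over samples, and no pull-down could be looked at alone. The intervals cover the counting of peaks or genes only. The list has no expression values, so the labelled cell line could not be checked against marker genes.

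A promoter is the DNA around a TSS on which transcription factors and RNA polymerase II assemble. In mammals most promoters of widely expressed genes lie in CpG islands, stretches rich in GC and in the dinucleotide CpG that are usually unmethylated, and many carry short words bound by SP1, NF-Y, ETS factors, NRF1 or YY1. Pairs of genes are often transcribed away from each other from a shared promoter. Long non-coding RNAs can act at a distance from their own gene through the chromatin proteins they bind.

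Sequences show what was captured and what with. The first set is the central 300 bp of 4 promoter peaks, read from mm9 and free of annotated UTRs: *Nup54*, the promoter peak with the second highest score; the peak shared by *Zfp882* and *Zfp617*; *Gsk3a*, which holds one match repeated; and *Hmgb2*, a gene that the study follows. Capitals mark stretches of at least 9 bases that match a capture oligonucleotide exactly on either strand.
*Nup54*, chr5:92864368-92864667, forward strand: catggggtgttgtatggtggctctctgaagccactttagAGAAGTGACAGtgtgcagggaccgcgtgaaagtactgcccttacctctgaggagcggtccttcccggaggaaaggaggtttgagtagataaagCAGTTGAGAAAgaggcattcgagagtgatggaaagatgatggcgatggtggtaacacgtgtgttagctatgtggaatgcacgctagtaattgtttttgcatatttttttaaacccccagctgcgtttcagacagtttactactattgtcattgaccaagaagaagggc
*Zfp882*, chr8:74432010-74432309, forward strand: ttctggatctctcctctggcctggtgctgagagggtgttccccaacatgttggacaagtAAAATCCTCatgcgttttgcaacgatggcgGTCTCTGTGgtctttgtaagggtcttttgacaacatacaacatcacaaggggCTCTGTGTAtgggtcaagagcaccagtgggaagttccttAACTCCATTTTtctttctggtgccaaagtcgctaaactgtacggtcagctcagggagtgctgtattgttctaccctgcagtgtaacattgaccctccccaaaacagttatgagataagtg
*Gsk3a*, chr7:26023078-26023377, forward strand: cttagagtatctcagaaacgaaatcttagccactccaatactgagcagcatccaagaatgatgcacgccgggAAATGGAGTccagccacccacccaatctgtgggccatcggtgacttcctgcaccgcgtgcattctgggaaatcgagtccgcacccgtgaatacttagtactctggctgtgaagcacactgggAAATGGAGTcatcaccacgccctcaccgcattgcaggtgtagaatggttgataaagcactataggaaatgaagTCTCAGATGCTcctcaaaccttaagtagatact
*Hmgb2*, chr8:59990331-59990630, forward strand: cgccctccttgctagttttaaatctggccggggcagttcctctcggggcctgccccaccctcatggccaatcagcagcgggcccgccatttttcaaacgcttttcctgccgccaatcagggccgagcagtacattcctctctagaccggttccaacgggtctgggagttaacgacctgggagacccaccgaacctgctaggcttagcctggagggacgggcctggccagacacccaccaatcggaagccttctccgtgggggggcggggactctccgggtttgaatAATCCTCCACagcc

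The second set is the 10 capture oligonucleotides of 25 bases each. All 10 had 1 exact site on chromosomes 1 to 19 and X of mm9, on the reverse strand of chromosome 1 between positions 42807626 and 42809582, where the *Dali* gene lies. No GENCODE M1 gene is annotated there, and the nearest deposited peak of any kind was 507685 bp from the nearest of these sites. The study itself reports, by qPCR, that its capture oligonucleotides enriched the *Dali* locus over controls. Capitals mark the 9 bases of each oligonucleotide found in the most promoter peaks.
linc8-C-oligo10: taggaactgaatCCAAGCCTCcttg
linc8-C-oligo11: GGTGGAGGAtttttctcaactgagg
linc8-C-oligo25: tGAAGCAAACctgtctggaagcaca
linc8-C-oligo27: gacTCTTGCATTctctactgtagac
linc8-C-oligo30: aatcctggtacacAGAGACAGAggc
cons1-1: gcttttcatcacccaTCTGGCTCTc
cons1-2: gacTCTGCTTTCaagaagtgacagc
cons2-1: gaagcatctgaGAAGTAGCCtgacc
cons2-2: tcaaaatggagttcaCTGCGGCTGg
noncons1: ttccaaagggacttTGGAACAGGtg

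Promoter peaks gathered on and just upstream of the TSS. The midpoint lay upstream of the nearest TSS in 235 peaks (65.28%; interval, 60.22% to 70.01%), downstream in 120 and on the TSS itself in 5. The median position was -73 bp, where a negative value is upstream, and the quartiles were -240.2 bp and 56.25 bp. 222 midpoints (61.67%) fell between 300 bp upstream and 100 bp downstream. The peak itself covered the nearest TSS in 266 cases (73.89%; interval, 69.12% to 78.16%), overlapped a 5′ UTR in 274 and overlapped a coding exon in 144. By the place of the midpoint, 189 peaks lay outside every coding transcript, 79 in a 5′ UTR, 76 in an intron, 15 in a coding exon and 1 in another exon. The distance rule alone fixes that midpoints lie within 1000 bp, but it does not fix the side or the crowding towards the TSS.

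**Figure D1:**
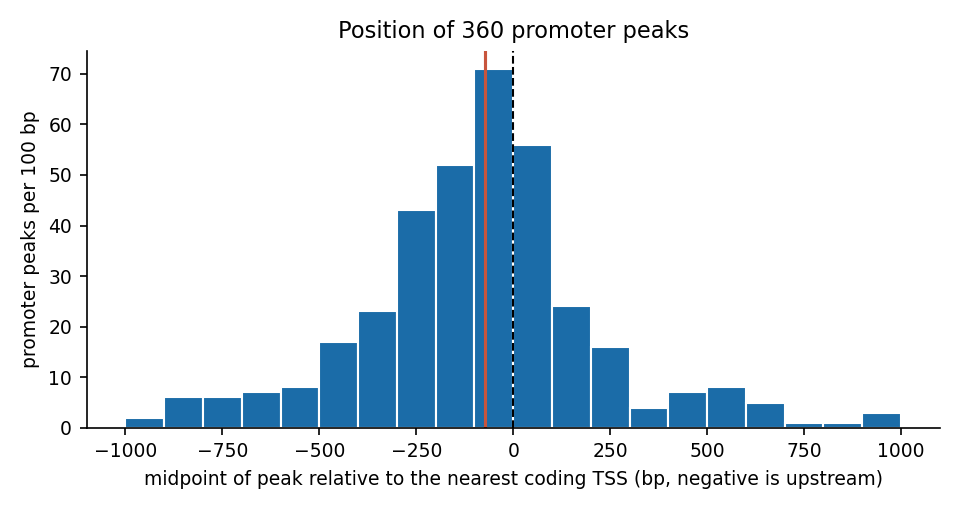
Histogram of the position of the 360 promoter peak midpoints relative to the nearest coding TSS, in bins of 100 bp (x axis, bp, negative is upstream; y axis, number of peaks). The dashed line is the TSS and the solid line the median at -73 bp; the tallest bin, with 71 peaks, is the 100 bp just upstream of the TSS.

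The nearest TSS was not always the first one of its gene. In 258 peaks (71.67%) it was the most upstream coding TSS, and in 35 (9.722%) it lay over 5 kb downstream of that. These internal starts included *Slc3a2*, the heavy chain of the CD98 amino acid transporter (9472 bp downstream), *Jarid2*, a partner of Polycomb repressive complex 2 (111156 bp), *Sp2*, a GC-box binding factor (5248 bp), and *Apc*, the Wnt pathway tumour suppressor (26774 bp). *Jmjd1c*, a gene of the JmjC demethylase family, had its peak 208 bp past an internal start that lay 89258 bp from the first. In *Scn1a*, a voltage-gated sodium channel gene, the peak covered a start 30776 bp downstream of the first. Measured from the most upstream TSS of each gene, the share of midpoints upstream was 55%. 1 gene, *Ccdc19*, had a pair of promoter peaks, at 2 of its TSSs, with scores of 22.91 and 10.16.

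The rule's limit fell in a thin part of the distribution. The 4 peaks just inside it were those of *1700081L11Rik* (midpoint at -953 bp, score 18.29), *2010003K11Rik* (962 bp, score 45.57), *Sik1* (-977 bp, score 21.41) and *Slc3a2* (997 bp, score 107.3). The 4 just outside lay at *Sv2c* (-1003 bp, score 10.04), *Cnga3* (1042 bp, score 73.85), *Fmnl1* (-1069 bp, score 10.2) and *2810453I06Rik* (-1071 bp, score 26.78). Thus the promoter peak with the highest score was also the member nearest to the limit. It lay over a coding exon at chr19:8787140-8787642 and did not cover a TSS.

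The scores of promoter peaks spread over the range of all peaks. They ran from 7.63 to 107.3, with a median of 19.98 and quartiles of 15.39 and 28.42. The median was 18.66 for the other 1067 peaks, 18.19 for the 291 peaks 1 to 10 kb from a TSS, 18.34 for the 322 farther peaks inside genes and 19.79 for the 454 farther peaks between genes. The median of promoter peaks had a 95% interval over peaks of 18.9 to 21.61, which takes in the median of the peaks between genes. The quartiles of the classes overlapped widely. Scores were at least 10 in 345 promoter peaks (95.83%) and in 94.56% of the others. Across promoter peaks, Spearman's correlation of score with distance to the TSS was -0.1344 and with width was 0.07161 (n = 360 peaks that share the same libraries, given as a description).

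After *Slc3a2*, the highest scores stood at *Nup54*, a nucleoporin of the central channel of the nuclear pore (72.15), *1500032L24Rik* (69.42), *Ube4b*, a ubiquitin chain assembly factor (60.29), *Orai3*, a store-operated calcium channel (58.27), and *Accs* (56.55). Next came *Hist1h4j*, a histone H4 gene (55.57), *Dhdds*, which makes the precursor of dolichol (55.27), *Rpl35a*, a protein of the large ribosomal subunit (54.26), and *Znhit3* (50.45). The peaks of *Ube4b*, *Accs*, *Dhdds*, *Rpl35a*, *Znhit3*, *1500032L24Rik* and *Nup54* covered the TSS, whereas those of *Slc3a2*, *Orai3* (midpoint at -776 bp) and *Hist1h4j* (-508 bp) did not. The lowest scores were those of *Tcea2*, a transcription elongation factor (7.63), *Efcab2* (7.93), *Rngtt*, the mRNA capping enzyme (8.11), *Fam168a* (8.34) and *Znhit1* (8.37).

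Most promoter peaks were focal. Widths ran from 219 bp to 2039 bp, with a median of 656.5 bp and quartiles of 486.5 bp and 849.2 bp, and 314 peaks (87.22%) were narrower than 1 kb. The median width was 635 bp among the other peaks, which reached 7063 bp. The 5 widest promoter peaks lay at *Usp5*, a deubiquitinating enzyme (2039 bp), *Lin28a*, an RNA-binding protein that blocks let-7 maturation (1948 bp), *Ilvbl* (1712 bp), *Hddc3* (1660 bp) and *R3hdm2* (1621 bp). All 5 covered their TSS, and their scores, from 10.35 to 28.1, were not among the 10 highest.

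**Figure D2:**
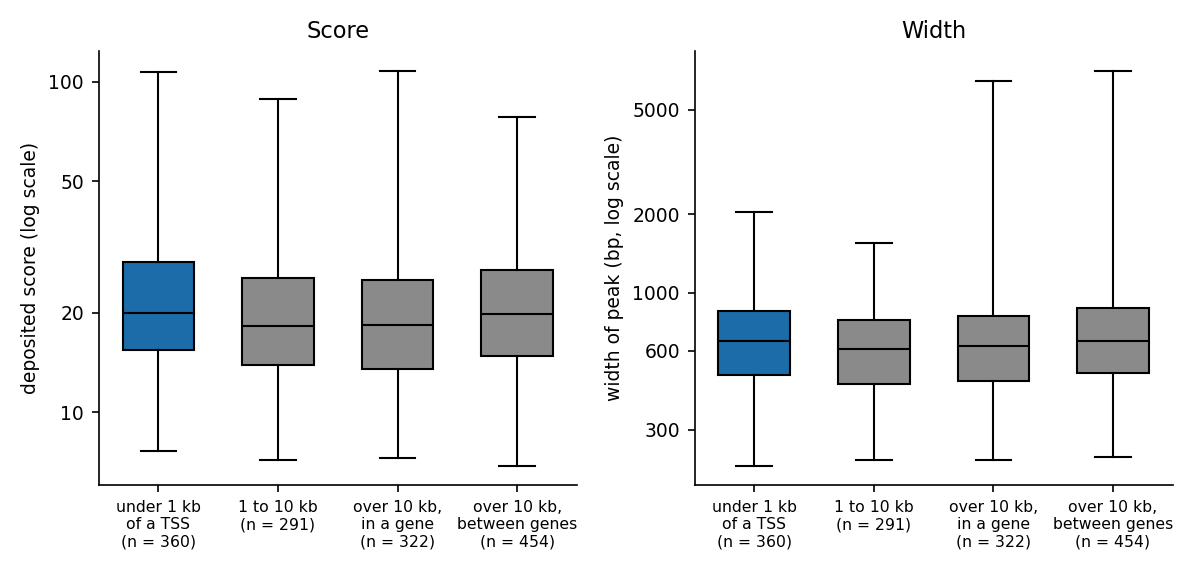
Deposited score (left, no unit given, log scale) and width in bp (right, log scale) of promoter peaks and of the classes of peaks farther from a TSS. Boxes span the quartiles, the line is the median and whiskers reach the lowest and highest value; the medians of the score run from 18.19 to 19.98 and the boxes overlap, while the widest peaks lie over 10 kb from a TSS.

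Promoter peaks were richer in GC and in CpG than the other peaks. Their median GC content was 55.76% (quartiles, 52.84% and 59.36%) against 49.93%, and the median ratio of observed to expected CpG was 0.6428 against 0.2341. A usual criterion for CpG islands, 50% GC or more and a CpG ratio of 0.6 or more, was applied here to whole peaks, and was met by 199 promoter peaks (55.28%; interval, 50.11% to 60.33%) and by 22 of the other peaks (2.062%; interval, 1.366% to 3.102%). For comparison, 48.16% of the 22342 coding genes met the criterion in the 500 bp about their most upstream TSS. Without olfactory and vomeronasal receptor genes this share was 51.48%. Both shares take in genes that N2A cells do not express, and the part of this in the comparison was not tested. In the 500 bp about the TSSs nearest to promoter peaks the share was 74.17% (interval, 69.41% to 78.42%), above that of all genes, and the median CpG ratio was 0.747 against 0.5952. The GC medians of these windows were 60.6% and 57.4%. In the central 500 bp of the promoter peaks themselves the share was 55.83%.

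The 199 CpG-rich promoter peaks and the other 161 differed in place. The peak covered the TSS in 173 (86.93%) of the first and in 93 (57.76%) of the second, and the median distance of the midpoint to the TSS was 117 bp and 263 bp. The median score was 22.52 in the CpG-rich class and 17.96 in the rest, and the median widths were 667 bp and 634 bp. Among the 10 highest scores, the peaks of *Nup54*, *1500032L24Rik*, *Ube4b*, *Accs*, *Dhdds*, *Rpl35a* and *Znhit3* were CpG-rich. Those of *Slc3a2*, with a CpG ratio of 0.2601, *Orai3* (0.1835) and *Hist1h4j* (0.4845) were not. Distance to the TSS and CpG content thus moved together, and their part in the scores was not tested.

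**Figure D3:**
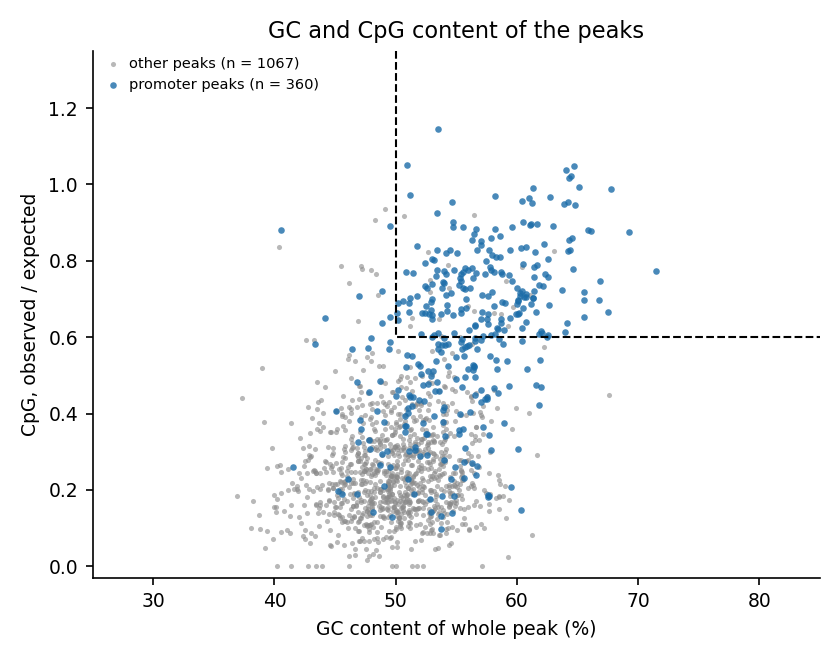
GC content (x axis, %) against the ratio of observed to expected CpG (y axis) for whole peaks, 360 promoter peaks in blue and 1067 other peaks in grey. The dashed lines bound the area with at least 50% GC and a CpG ratio of at least 0.6, which holds 199 promoter peaks and 22 of the others.

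Words bound by general promoter factors were frequent in the centres of promoter peaks. 15 exact words were looked for on either strand of the middle 500 bp, and the same words in 500 bp about the most upstream TSS of all 22342 coding genes and in the centres of the other peaks. The GC box GGGCGG (SP1 and KLF factors) was in 206 promoter peaks (57.22%; interval, 52.06% to 62.23%), in 53% of all promoters and in 15.93% of the other peaks. The ETS word CCGGAAG was in 81 promoter peaks (22.5%; interval, 18.49% to 27.09%), against 14.46% of all promoters and 4.592% of the other peaks. For the YY1 word AAGATGGCG these values were 5.556% (20 peaks; interval, 3.625% to 8.425%), 2.878% and 0.7498%. The E-box CACGTG (USF and MYC) was in 14.44% (interval, 11.19% to 18.45%), 10.41% and 8.529%. For ETS, YY1 and the E-box the interval over promoter peaks thus lay above the share of all promoters. The windows of promoter peaks are centred on midpoints and those of all promoters on TSSs. In 500 bp about the TSSs nearest to promoter peaks the GC box was in 71.11% (interval, 66.23% to 75.55%). There the ETS word was in 23.89%, the YY1 word in 6.944% and the E-box in 13.61% (interval, 10.45% to 17.54%). No correction for base composition was made. All promoters take in those of genes that N2A cells do not express, and the part of this in the differences was not tested.

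In peak centres the other promoter words were found about as often as in promoters at large, or less often. CCAAT, the NF-Y word, was in 51.94% of promoter peaks, 47.96% of all promoters and 50.05% of the other peaks. The NRF1 word GCGCATGCG was in 2.778%, 2.444% and 0.4686%, and the CRE word TGACGTCA in 2.222%, 2.618% and 0.7498%. The E2F word TTTGGCGC was in 5 promoter peaks (1.389%), among them *Cdc6*, which loads the replicative helicase, against 0.922% of all promoters. TTTGAA, the cell cycle homology region, was in 22.78% and 21.79%, GGGGAGGGG (MAZ) in 8.333% and 9.417%, and ACTACAATT (ZFP143) in 0.8333% and 0.5147%. In 500 bp about the TSSs nearest to promoter peaks TTTGAA was less frequent than in all promoters, in 15.28% (interval, 11.93% to 19.36%). The E2F word was there in 2.222%, and its interval (1.13% to 4.323%) lay above the share of all promoters. TATAAA was rarer, in 31 promoter peaks (8.611%; interval, 6.133% to 11.96%) against 16.57% of all promoters and 16.59% of the other peaks. About the TSSs nearest to promoter peaks it was in 9.444% (interval, 6.837% to 12.91%). The part that silent genes among all promoters have in this was not tested. The histone gene *Hist1h4j* was the promoter peak with TATAAA that had the highest score.

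AP-1 and homeodomain words were less frequent in promoter peaks than in the other peaks. The AP-1 word TGAGTCA was in 6.111% of promoter peaks (interval, 4.07% to 9.079%), 6.029% of all promoters and 19.87% of the other peaks (interval, 17.58% to 22.37%). TAATTA, a homeodomain word, was in 6.944% (interval, 4.748% to 10.05%), 6.248% and 12.93% (interval, 11.05% to 15.08%). The octamer ATGCAAAT, the word of POU factors such as POU3F3, was in 6 promoter peaks (1.667%; interval, 0.766% to 3.588%), 2.095% of all promoters and 3.655% of the other peaks (interval, 2.685% to 4.958%), and these intervals overlap. The 4 of these with the highest scores were *Acp2*, *H3f3b*, *Ube2s* and *Fbxo48*.

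**Figure D4:**
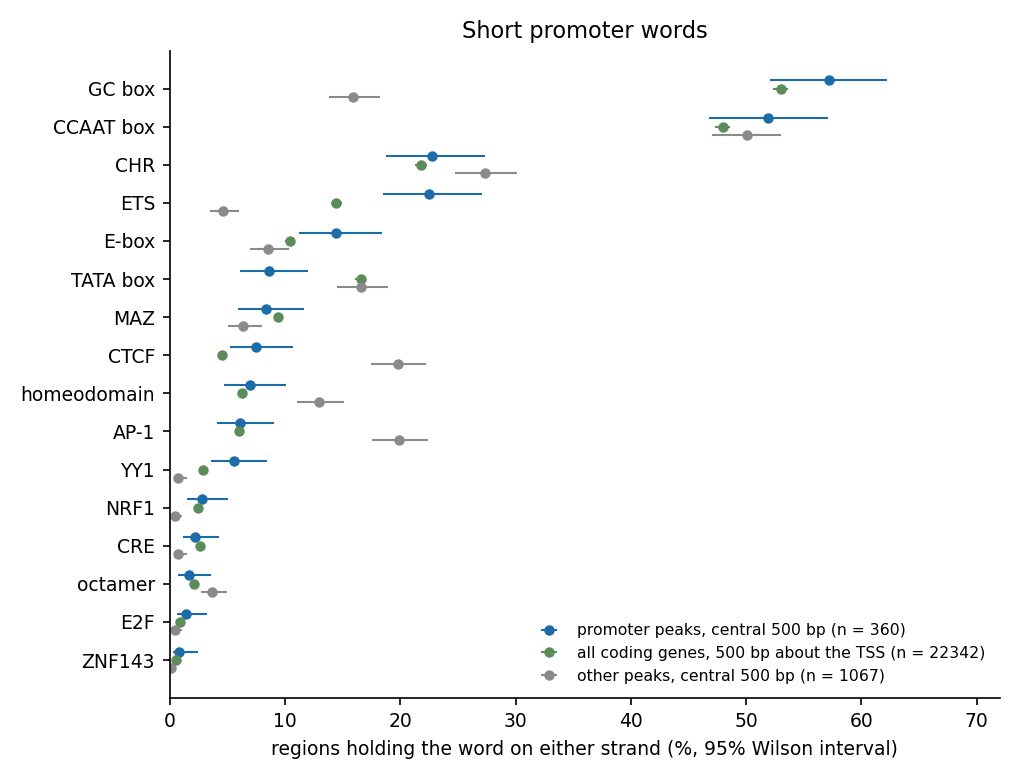
Share of regions that hold each word on either strand (x axis, %, with 95% Wilson intervals over regions) in the central 500 bp of promoter peaks (blue) and other peaks (grey) and in 500 bp about the TSS of all coding genes (green). ETS, YY1, E-box and CTCF shares in promoter peaks lie above those of all promoters, TATA lies below, and AP-1 and CTCF are highest in the other peaks.

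The CTCF consensus of 13 bases, allowing 1 mismatch, was in the centres of 27 promoter peaks (7.5%; interval, 5.205% to 10.69%) and 211 other peaks (19.78%; interval, 17.5% to 22.27%). It was in 4.512% of all promoters, below the interval over promoter peaks, and in 4.444% of the 500 bp windows about the TSSs nearest to promoter peaks. With no mismatch it was in 8 promoter peaks (2.222%; interval, 1.13% to 4.323%), 0.5326% of all promoters and 6.935% of the other peaks. The share was thus lower in promoter peaks than in peaks 1 to 10 kb from a TSS, where the word with up to 1 mismatch was in 24.05% (interval, 19.5% to 29.28%). The 8 exact sites follow on the strand that carries the word, with 8 bases to either side and the word in capitals. Their genes include *Hist1h4j*, *Scn1a*, *Dctn1*, a dynactin subunit, and *Tsen54*, a subunit of the tRNA splicing endonuclease. In *Dctn1* the word lay 6 bp from the midpoint of the peak and in *4632404H12Rik* 28 bp, whereas in *Hist1h4j* it lay 241 bp away.
*Hist1h4j*, chr13:21826141-21826169, reverse strand: ctggatggCCACTAGAGGGCActcttgac
*Wdr41*, chr13:95746258-95746286, forward strand: gcgcacgcCCACTAGGGGGCGcccgagcg
*Ccdc110*, chr8:47020296-47020324, reverse strand: ctctgtggCCACCAGAGGGCGcgctatga
*Dctn1*, chr6:83115627-83115655, forward strand: atcctcctCCAGCAGAGGGCGttcacccc
*Scn1a*, chr2:66248227-66248255, reverse strand: cgatgtagCCACTAGATGGCActgtaacg
*4632404H12Rik*, chr3:89576641-89576669, reverse strand: cgtcgttcCCACTAGGTGGCActatcaca
*Tsen54*, chr11:115675407-115675435, reverse strand: gacgctcaCCACTAGGTGGCAccgttgct
*Tmem87b*, chr2:128643209-128643237, reverse strand: aggtctcaCCAGTAGGTGGCActaggaaa

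Most promoter peaks lay near 1 coding gene, and some at pairs of genes read in opposite directions. 301 peaks had the TSSs of 1 coding gene under 1 kb, 58 of 2 genes, and 1, at *Ubr4*, *C230096C10Rik* and *Mrto4*, of 3. In all, 419 coding genes had a promoter peak. The nearest TSS belonged to a divergent pair, with its partner's TSS at most 1000 bp away on the other strand, in 48 peaks (13.33%; interval, 10.21% to 17.23%), against 8.662% of all 45993 coding TSSs. With partners of every biotype the shares were 20.83% and 12%. Both backgrounds count every coding TSS of a gene, internal ones included. The TSS nearest to a promoter peak was the most upstream of its gene in 71.67%. The part of this in the differences was not tested. The 4 divergent peaks with the highest scores lay at the pairs of *Rpl35a* and *Iqcg* (TSSs 248 bp apart, score 54.26), *Polr1a*, the largest subunit of RNA polymerase I, and *Ptcd3* (291 bp, 50.21), *Dolk*, which phosphorylates dolichol, and *Nup188* (43 bp, 47.81), and *Chtf18* and *Rpusd1* (332 bp, 44.94). *Oip5* and *Nusap1*, both genes of chromosome segregation, shared 1 peak (248 bp, score 18.08). So did *Prr11* and *Fam33a* (526 bp, 38.4). A peak at such a pair cannot be given to either gene. Divergent TSSs made up 18.09% of the CpG-rich class and 7.453% of the rest.

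In 36 promoter peaks (10%) a TSS of a gene of another biotype also lay under 1 kb. These genes were 22 lincRNAs, 9 processed transcripts, 4 miRNAs, 1 snoRNA and 1 pseudogene. The lincRNA starts shared promoter peaks with *Timeless*, a replication fork protein (with *Gm17292*), *Hsd17b7*, an enzyme of cholesterol synthesis (*3110045C21Rik*), *Cdipt*, the phosphatidylinositol synthase (*D830044I16Rik*), and *Sox9*, a transcription factor of neural and other progenitors (*BC006965*).

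Promoter peaks held more short matches to the *Dali* capture oligonucleotides than promoters at large. An exact match of 9 bases to at least 1 of the 10, on either strand, lay in the central 500 bp of 278 promoter peaks (77.22%; interval, 72.62% to 81.25%). The share was 51.11% in the 500 bp about the TSS of all coding genes (interval, 50.45% to 51.77%), 65.56% about the TSSs nearest to the promoter peaks, and 59.58% in windows of 500 bp placed 5000 bp to either side of each promoter peak. The other peaks had 84.44%. The same 10 sequences read backwards, which have the same bases in the opposite order, matched 43.89% of promoter peaks (interval, 38.85% to 49.05%), 37.78% of all promoters and 39.44% of the windows 5000 bp away. Thus the forward sequences separated promoter peaks from all promoters by more than the backward ones did. 10 bases were matched in 35.28% of promoter peaks, 16.58% of all promoters and 24.86% of the windows 5000 bp away, and 11 bases in 11.67%, 4.673% and 7.639%. At 12 bases the shares were 2.222% (interval, 1.13% to 4.323%), 1.235% and 2.361%, and did not separate promoter peaks from either. The match length and these comparisons were chosen after the data had been seen.

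Each of the 10 oligonucleotides was matched more often in promoter peaks than in all promoters. In the other peaks all but cons2-2 were matched more often still, with 25.3% for linc8-C-oligo30 and 21.09% for cons1-1. There cons2-2 had 14.71%. In promoter peaks and all promoters the shares ran from 6.944% against 4.154% for linc8-C-oligo27 to 16.94% against 7.542% for linc8-C-oligo11. For cons2-2 they were 16.67% (interval, 13.17% to 20.86%) and 6.763%, for cons1-1 15.83% and 6.79%, for linc8-C-oligo25 15.83% and 7.707%, and for linc8-C-oligo30 15.83% and 9.681%. The interval over promoter peaks took in the share of all promoters for cons2-1 (6.133% to 11.96%, against 6.19%) and for noncons1 (6.367% to 12.28%, against 6.696%), and lay above it for the other 8. The *lacZ* oligonucleotide, whose pull-down was one of the controls used to call the peaks, went the other way: 1 promoter peak (0.2778%; interval, 0.04905% to 1.556%) held a match to it, against 2.842% of all promoters. Read backwards it matched 3.056% of promoter peaks and 2.771% of all promoters.

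The matches were crowded at the midpoint. In bins of 200 bp, 45.83% and 42.78% of promoter peaks held a match in the bins just left and right of the midpoint, against 27.22% in the bin from -600 to -400 bp and 27.78% in that from 400 to 600 bp. Backward sequences gave 21.94% and 19.44% in the same central bins and 20.56% and 16.67% in the outer ones. The other peaks showed the same crowding, with forward matches in 56.7% and 53.33% in the central bins and 32.33% and 33.27% in the outer ones. In all promoters the share of forward matches was lowest at the TSS, at 25.61% and 25.03%. The 9-base stretches in capitals above were picked as those in the most promoter peaks, so their excess over all promoters is partly fixed by that choice and is given as a description. GGTGGAGGA was in 20 promoter peak centres (5.556%, against 1.777% of all promoters), AGAGACAGA in 18 (5%, against 1.737%), CTGCGGCTG in 14 (3.889%, against 1.969%) and GAAGCAAAC in 13 (3.611%, against 0.5147%). 124 promoter peaks (34.44%) matched 2 or more of the oligonucleotides and 48 (13.33%) matched 3 or more, against 15.44% and 3.258% of all promoters and 51.08% and 19.12% of the other peaks. The scores showed little relation to the matches, with a median of 19.62 where the longest match was 8 bases or fewer and 18.71 where it was 11 or more, and Spearman's correlation of score with the number of oligonucleotides matched was 0.1185 (n = 360 peaks, given as a description). Whether the matches have a part in the recovery of these promoters was not tested.

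**Figure D5:**
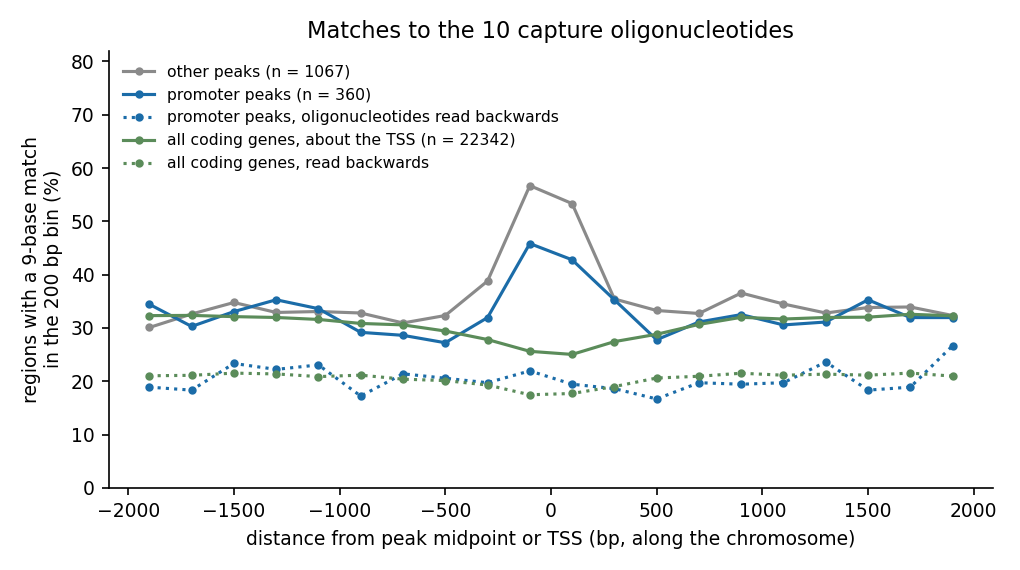
Share of regions with an exact match of 9 bases to any of the 10 capture oligonucleotides (y axis, %) in bins of 200 bp around the midpoint of promoter peaks (blue) and other peaks (grey) and around the TSS of all coding genes (green); dotted lines are the same oligonucleotides read backwards. The forward matches rise to 45.83% of promoter peaks and 56.7% of other peaks at the midpoint. The backward matches stay between 16.67% and 26.67%, and all coding genes fall to 25.03% at the TSS.

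A match of 12 or more bases was in 8 promoter peaks (2.222%), a share near the 2.361% of the windows 5000 bp away and the 1.389% for backward sequences, and below the 6.279% of the other peaks. 7 of the 8 follow with 15 bases to either side and the match in capitals. The longest matches, of 13 bases, were at *Nars2*, the mitochondrial asparaginyl-tRNA synthetase, and *Foxn3*, a forkhead factor. *Nrp2*, a receptor for class 3 semaphorins in axon guidance, and *Sik1*, a salt-inducible kinase, had 12 bases, and in *Sik1* they lay 27 bp from the midpoint. The sites at *Nars2* and *1700081L11Rik* lie in stretches rich in C and T.
*Nars2*, chr7:104099382-104099424, forward strand, 13 bases of linc8-C-oligo30: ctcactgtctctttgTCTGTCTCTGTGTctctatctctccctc
*Foxn3*, chr12:100632014-100632056, forward strand, 13 bases of cons1-2: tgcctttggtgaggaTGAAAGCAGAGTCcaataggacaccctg
*Nrp2*, chr1:62749329-62749370, forward strand, 12 bases of cons2-1: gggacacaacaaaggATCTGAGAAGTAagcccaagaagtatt
*Sik1*, chr17:31993667-31993708, forward strand, 12 bases of linc8-C-oligo25: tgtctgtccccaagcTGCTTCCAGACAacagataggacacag
*1700081L11Rik*, chr11:104330887-104330928, forward strand, 12 bases of linc8-C-oligo30: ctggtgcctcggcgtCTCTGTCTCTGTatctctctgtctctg
*Agpat4*, chr17:12311933-12311974, forward strand, 12 bases of cons1-1: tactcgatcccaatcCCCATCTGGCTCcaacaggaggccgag
*Ap3s2*, chr7:87065691-87065732, forward strand, 12 bases of linc8-C-oligo10: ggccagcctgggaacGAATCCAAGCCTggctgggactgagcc

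Chromosomes differed in how many of their promoters were listed. The share of coding genes with a promoter peak was 1.88% over the genome (419 of 22342), and ran from 0.5247% on chromosome 14 and 0.5365% on the X chromosome to 3.697% on chromosome 8. Chromosome 8 held 34 of the promoter peaks, and the X chromosome held 4. Peaks of every kind numbered 155 on chromosome 8, the most of any, 32 on chromosome 14 and 16 on the X chromosome. Promoter peaks made up 21.94%, 15.62% and 25% of these, against 25.23% of all peaks. The high count on chromosome 8 and the low counts on chromosomes 14 and X were thus seen in peaks of every kind. Over all chromosomes the share of peaks at promoters ran from 15.62% on chromosome 14 to 38.75% on chromosome 7. The densest stretch of 1 Mb also lay on chromosome 8, with 9 promoter peaks between 72273881 and 73222432, among them those of *Zfp963*, *Gmip*, *Tssk6*, *Tmem161a*, *Armc6*, *Homer3*, *Ssbp4* and *Jund*, the last an AP-1 subunit. On chromosome 15, *L3mbtl2*, *Rangap1*, *Tef*, *Tob2* and *1500032L24Rik* had peaks within 1 Mb, and on chromosome 7 *Cdipt*, *Cd2bp2*, *Ctf1*, *Orai3* and *Stx4a* did. In all, 49 promoter peaks (13.61%; interval, 10.45% to 17.54%) lay within 100 kb of another promoter peak. Among themselves, 30.08% of the 1067 other peaks did. A larger set has nearer neighbours, so these shares cannot be compared. The copy number of the chromosomes of this cell line was not analysed here.

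Gene families defined by their symbols were compared with that 1.88%. Among cytosolic ribosomal protein genes 6 of 83 had a promoter peak (7.229%; interval, 3.355% to 14.89%), among them *Rpl35a* (score 54.26), *Rpl37a* (34.08), *Rpl7l1* (32.74), *Rps21* (19.59) and *Rpl7* (11.49). The midpoints of these 5 lay within 250 bp upstream of the TSS. Mitochondrial ribosomal proteins had 3 of 77 (*Mrps31*, *Mrpl47* and *Mrps27*), proteasome subunits 3 of 52 (*Psmd3*, *Psmd4* and *Psmd10*), and the respiratory chain and ATP synthase 6 of 94 (6.383%; interval, 2.958% to 13.23%). The last group comprised *Ndufa13*, *Ndufb5*, *Atp5c1*, *Cox8a*, *Atp5j2* and *Cox7a2l*. *Mrpl47* and *Ndufb5* share a score of 25.88 because they share 1 peak. The intervals of the cytosolic ribosomal and respiratory families lay above 1.88%, and that of the mitochondrial ribosomal family (1.334% to 10.84%) took it in. The interval of the proteasome family (1.981% to 15.64%) lay just above 1.88%. It took in 2.005%, the background without olfactory and vomeronasal receptor genes. Either background takes in genes that N2A cells do not express, and the part of this in the differences was not tested. The genes of a family are not independent, and no test was made.

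Other large families were closer to the background or below it. Zinc finger protein genes had 11 of 371 (2.965%; interval, 1.664% to 5.23%), led by *Zfp882* and *Zfp617*, which share a peak with a score of 45.46, *Zfp455* (39.73), *Zfp524* (35.71) and *Zfp963* (27.63). Solute carriers had 3 of 355 (0.8451%; interval, 0.2878% to 2.455%), *Slc3a2*, *Slc45a4* and *Slc35a4*. Histone genes had 2 of 79, *Hist1h4j* and *H3f3b*, the latter encoding the replacement histone H3.3. Voltage-gated ion channels had 2 of 77, *Scn1a* and *Kcnh6*. None of 42 kinesin genes had a promoter peak (interval, up to 8.38%), and none of 1441 olfactory and vomeronasal receptor genes did (up to 0.2659%). These receptor genes are silent in most tissues and are poor in CpG, and without them the background was 2.005%.

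Pathway lists were written by hand, and some of their members were entered after the names of genes near peaks had been seen in the study's own ontology table, so the first count given here is too high. The second count leaves out every gene in the first 3 terms of that table and every gene the study followed singly, and since the table names only genes near peaks it is too low. Both stand against the 1.88% of all coding genes. DNA replication had 6 of 55 genes with a promoter peak (10.91%) and, by the second count, 4 of 51 (7.843%). They were *Timeless* (31.41), *Gins2* of the GINS helicase complex (21.2), *Orc4* of the origin recognition complex (17.61), *Rpa2*, which coats single-stranded DNA (16.19), *Cdc6* (15.86) and *Mcm6* of the replicative helicase (12.94). Mitosis had 5 of 68 (7.353%), and 0 of 58 by the second count: *Cdca3* (28.1), the spindle checkpoint gene *Mad1l1* (19.94), *Dlgap5* (19.22), *Oip5* and *Nusap1*. Splicing and mRNA processing had 12 of 99 (12.12%), and 1 of 84 (1.19%) by the second count, led by *Larp7*, which stabilises 7SK RNA (35.15), *Snw1* (27.67), the helicase *Ddx39b* (26.07) and *Isy1* (21.5). For mitosis and splicing the choice of genes therefore decides the count, and no level can be given.

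The second count changed the translation list little, though this list too was written with earlier results of these data known. It had 8 of 89 genes with a promoter peak (8.989%; interval, 4.625% to 16.75%; all coding genes, 1.88%), and 8 of 88 by the second count. These were the tRNA synthetases *Yars* (30.67), *Lars2* (23.09) and *Nars2* (18.57), the elongation factors *Eef1a2* (28.01) and *Eef1g* (18), *Eif2b5* of the eIF2B exchange factor (15.65), the release factor *Gspt1* (13.09) and *Aimp1* of the multisynthetase complex (12.64). *Yars* and *Eef1g* had their midpoints downstream of the TSS, at 203 bp and 359 bp, and *Aimp1* at 136 bp, while the other 5 lay upstream.

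Lists of neural genes were too short to be set apart from the 1.88% of all coding genes. None of the 80 listed neural transcription factor genes had a promoter peak (interval, up to 4.582%). The count depends on a hand-written list that leaves out *Sox9*, which had a promoter peak (score 21.43, midpoint at -340 bp). Of 76 axon guidance genes *Nrp2* did (1.316%; interval, 0.2326% to 7.084%), with a score of 25.4 and its midpoint at -407 bp. The list for the transmitter phenotype had 2 of 34 (5.882%; interval, 1.628% to 19.09%), among them *Ache*, acetylcholinesterase (16.63), and 0 of 28 by the second count. Chromatin regulators had 3 of 82 (*Suv420h2*, *Arid1a* and *L3mbtl2*) and 0 of 79 by the second count. N-glycosylation and quality control in the endoplasmic reticulum had *Dolk* and *Dpm2* of 69, both taken from the primer list of the study, and sterol biosynthesis had *Hsd17b7* of 29.

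Which promoters with a peak belong to genes that the study lists as changed when *Dali* is depleted was counted by name only, without direction. Of 267 matched genes of the transient *Dali* knockdown, 14 had a promoter peak (5.243%; interval, 3.149% to 8.608%), against the 1.88% of all coding genes. They were *Prr11* (score 38.4), *4930422G04Rik* (35.15), *Cntd1* (32.22), *Fbxo48* (24.6), *Hmgb2*, a chromatin protein of the HMGB family (22.92), *Oip5* (18.08), *Ache* (16.63), *Anxa5* (16.55), *Rpa2* (16.19), *Fignl1* (16.07), *Cdc6* (15.86), *Fam189b* (14.08), *Mcm6* (12.94) and *Ctla2b* (12.89). *Rpa2*, *Cdc6* and *Mcm6* act in DNA replication. The background takes in genes that N2A cells do not express, while a knockdown list can hold only genes an array detects, and the part of this in the difference was not tested.

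The stable knockdown lists lay nearer to the background. In proliferating cells 18 of 702 listed genes had a promoter peak (2.564%; interval, 1.628% to 4.017%), led by *Zfp882* and *Zfp617* (45.46), *Exoc4* of the exocyst (40.36), *Zfp455* (39.73), *Lysmd3* (32.44) and *Ccdc56* (32.22). In differentiated cells there were 19 of 725 (2.621%; interval, 1.684% to 4.057%), among them *Zfp882*, *Zfp617*, *Zfp455*, *Rpl37a* (34.08), *0610007P14Rik* (32.82) and *Ccdc56*. The lists overlap and were not compared with each other. *Nrp2*, *Scn1a*, *Hsd17b7* and *P2rx7*, an ATP-gated ion channel, were on both stable lists. The *Dali* lists together gave 40 of 1286 genes (3.11%; interval, 2.292% to 4.208%), which is 9.547% of the 419 genes with a promoter peak. Of 50 genes on the transient list and a stable one, 1, *Ctla2b*, had a promoter peak (2%, interval 0.3539% to 10.5%). This share is near the 1.88% of all coding genes.

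Of 1003 genes listed for the knockdown of *Pou3f3*, the transcription factor gene next to *Dali*, 25 had a promoter peak (2.493%; interval, 1.694% to 3.654%, which takes in the 1.88% of all coding genes). The highest scores were those of *Nup54* (72.15), *Arf2*, a small GTPase of the Golgi (47.28), *Ccdc163* (42.79), *Ccdc99* (39.03), *Prr11* and *Fam33a* (38.4), *BC088983* (38) and *4930422G04Rik* (35.15). *Srd5a1*, a steroid reductase (31.7), *Cdca3* (28.1), *Dlgap5* (19.22) and *Ache* (16.63) were also among them. 6 genes with a promoter peak were on a *Dali* list and on the *Pou3f3* list, out of 239 genes on both (2.51%; interval, 1.156% to 5.368%), which is also near that background.

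Among 38 genes that the study names or follows at a locus, 7 had a promoter peak by the 1000 bp rule. *E2f2* and *Nos1* were among those without one. The study itself shows a focal peak at the *E2f2* promoter and describes the upstream *Nos1* promoter as bound by *Dali*. The rule used here leaves out any peak whose midpoint is farther from a GENCODE M1 coding TSS. The study chose many of the 38 loci for their binding in these data, so the count is not to be read against the 1.88% of all coding genes. *Ache* had its promoter peak at chr5:137727854-137728727 with the midpoint at -457 bp, so that the peak did not reach the TSS. *Hmgb2* had its own at chr8:59990129-59990833, with the midpoint at -160 bp and the TSS covered. The peak of *Dlgap5*, a spindle protein, lay at chr14:48037665-48038106, over the 5′ UTR with its midpoint at 197 bp. That of *Dkk1*, a secreted Wnt inhibitor, lay at chr19:30623342-30624214, with its midpoint in a coding exon at 378 bp. *Prr11* had its midpoint at -388 bp (chr11:86922164-86923034), in the peak shared with *Fam33a*. *Dolk* (chr2:30141694-30142037, 9 bp) and *Dpm2*, a subunit of dolichol-phosphate mannose synthase (chr2:32426137-32426669, 24 bp), had theirs on the 5′ UTR. Their scores ran from 16.63 for *Ache* to 47.81 for *Dolk*. The *Hmgb2* peak matched linc8-C-oligo11 over 10 bases and the *Ache* peak matched cons1-1 over 11 bases, outside the 300 bp at its centre. *Dkk1* had no match of 9 bases.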

How the data were processed

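Paired reads of 50 bp were mapped by the authors to mm9 (Bowtie). Peaks were called by MACS2, once with input and once with *lacZ* DNA as the control, and the authors deposited those common to both calls as 1 list, with a score per peak that has no header and no named unit (versions not given in the sources used here). The score was used only to rank and filter peaks. The 3 pull-downs are combined in it, so the depth is unknown. TSSs and exons came from GENCODE M1 (22342 coding genes, 45993 distinct coding TSSs), and sequence from mm9. Words, the CTCF consensus and matches to the oligonucleotides of the supplementary list were searched in the central 500 bp. Shares carry 95% Wilson intervals, and no test was made. Functions were tested on simulated data with planted answers. The members, gene lists and words were chosen with earlier results of these data known. Genes named are the highest and lowest scores, the widest peaks, the peaks at the limit, the highest scores of each list, word or divergent class, and genes the study follows; genes named for function alone were chosen after their values were seen. Names on the knockdown lists were matched by Ensembl identifier, then symbol. Alternatives covered the distance limit, TSS set, score, window, CpG criterion and mismatches; those for oligonucleotide matches and the background without receptor genes were chosen after seeing the data. Analyses ran in Python 3.11.15 (pysam 0.24.0, pandas 2.3.3, numpy 2.4.6, matplotlib 3.10.9, scipy 1.17.1). Microarray, qPCR, ChIP and bisulfite data were not analysed here, and the values of some genes are not reported here.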

Additional observations from a re-analysis of the deposited data

How the results depend on the processing

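Of 32 alternatives to 12 results, 21 stayed within the 95% interval of the value reported, or within 1.5 times a count. The share of peaks at promoters was 29.09% with peaks within 100 kb counted as 1 region. The share of coding genes with a promoter peak was 1.643% with a limit of 500 bp and 2.139% with 2000 bp, as a nearer or farther limit must give. Midpoints upstream of the TSS were 55% from the most upstream TSS of each gene, and peaks near divergent TSSs 20.83% with genes of every biotype. The CpG criterion at 55% GC and a ratio of 0.65 was met by 33.61%, and the CTCF consensus without mismatch by 2.222%. The share of promoter peaks with a match to a capture oligonucleotide was 98.89% at 8 bases, 35.28% at 10, 11.67% at 11 and 85% over whole peaks. The stricter criterion and the longer match can only lower these shares. No paired analysis was possible because values of single pull-downs were not used here: the list pools all 3, so none of them could be left out. Mappability and copy number were not analysed here, and peaks near each other are not independent.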
